A study of Homo sapiens with 6 samples.

Results

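The genes described here lie on the short arm of chromosome 2, in band 2p24, around the oncogene *MYCN*. They were chosen by position alone: every gene in the count tables whose lowest start is between 12000000 and 20000000 on chromosome 2 of GRCh38 was taken, which gave 82 of 60651 genes. Of these, 41 were long non-coding RNAs (lncRNAs), 19 were protein-coding, 7 were processed pseudogenes, 4 each were snoRNAs and snRNAs, 3 each were miRNAs and miscellaneous RNAs, and 1 was a model awaiting experimental evidence. Total RNA depleted of ribosomal RNA was sequenced from 6 libraries of a human neuroblastoma cell line, 3 titled EtOH (ethanol, the vehicle) and 3 titled Tet (tetracycline, given for 5 days). The titles name IMR-5/75, a *MYCN*-amplified line that the study used with an inducible shRNA against *MYCN*, and 1 tag calls the groups control and induction of a knockdown. The growth text attached to the same libraries speaks instead of single clones of SK-N-SH with the tetracycline repressor and an inducible *MYCN* construct, kept under G418 and blasticidin, and the study's own expression model was SK-N-AS. The groups were taken from the titles, both carry the same labels for the cells, and every direction below is that of the library labels.

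Neuroblastoma is a childhood tumour of the sympathetic nervous system, and extra copies of *MYCN*, which encodes a transcription factor of the MYC family, mark an aggressive form of it. The amplified stretch of DNA, the amplicon, is usually longer than *MYCN* and can carry its neighbours along, most often *DDX1* and sometimes *NBAS*. Its borders differ between tumours and lines. Amplified copies may sit on extrachromosomal circles or as a block within a chromosome. DNA copy number was not measured in these files, so the data give RNA levels along the region and not the borders of an amplicon.

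The libraries held between 27933378 and 40498065 counts, at which 3 counts, used here as the floor, equal 0.0741 to 0.107 CPM, the unit of counts relative to library size. Values of a group are given below in the order of replicates 1, 2 and 3. Replicates of a group differed by more than counting noise (chi-square of 11.6 to 147 for each degree of freedom), so each library was counted once. The study's methods describe its cell culture experiments in general as biological replicates, but the labels do not say whether these libraries came from separate cultures, and p-values then measure only the spread between them. Among markers of the noradrenergic neuroblastoma state, *GATA3* averaged 225 TPM, the unit of levels per exon length, whereas *DBH* and *TH*, enzymes of noradrenaline synthesis, were near 0 at 0.161 and 0.00321 TPM. The leukocyte marker *PTPRC* was at 0.137 TPM and the epithelial marker *EPCAM* at 1.30 TPM.

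The region took a large share of all RNA in every library. It held 3.14%, 2.403% and 3.13% of the counts in the EtOH libraries and 3.05%, 2.56% and 3.02% in the Tet libraries. The means were 2.89% ± 0.423 for EtOH and 2.88% ± 0.273 for Tet (SD, n = 3 each), so the groups overlapped and the 2 libraries numbered 2 were the lowest of each. When the genome was divided into 387 windows of 8 Mb, a median window held 0.175% of counts. Only 2 windows held more than the region: one on chromosome 11 led by *MALAT1*, a nuclear lncRNA, with 8.36%, and a window of chromosome 2 that overlaps the region and also holds *DDX1*, with 3.03%.

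That share came from few genes. *DDX1* gave 56.4% of the region's counts, *NBAS* 26.6% and *LRATD1* 12.7%, together 95.6%, and the other 79 genes gave 4.38%. Without these 3 genes the region held 0.127% of a library, and 263 of the windows held more. Of the 82 genes, 17 had no count in any library, 38 had a mean above 0 and under 1 TPM, 12 lay from 1 to under 10, 7 from 10 to under 100, 4 from 100 to under 1000, and 4 at 1000 TPM or more. Among 40915 genes with a count anywhere, 6 of the 82 reached the 99th percentile of mean TPM (171.2 TPM). When ranked by CPM, with no division by length, 4 did.

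**Figure D1:**
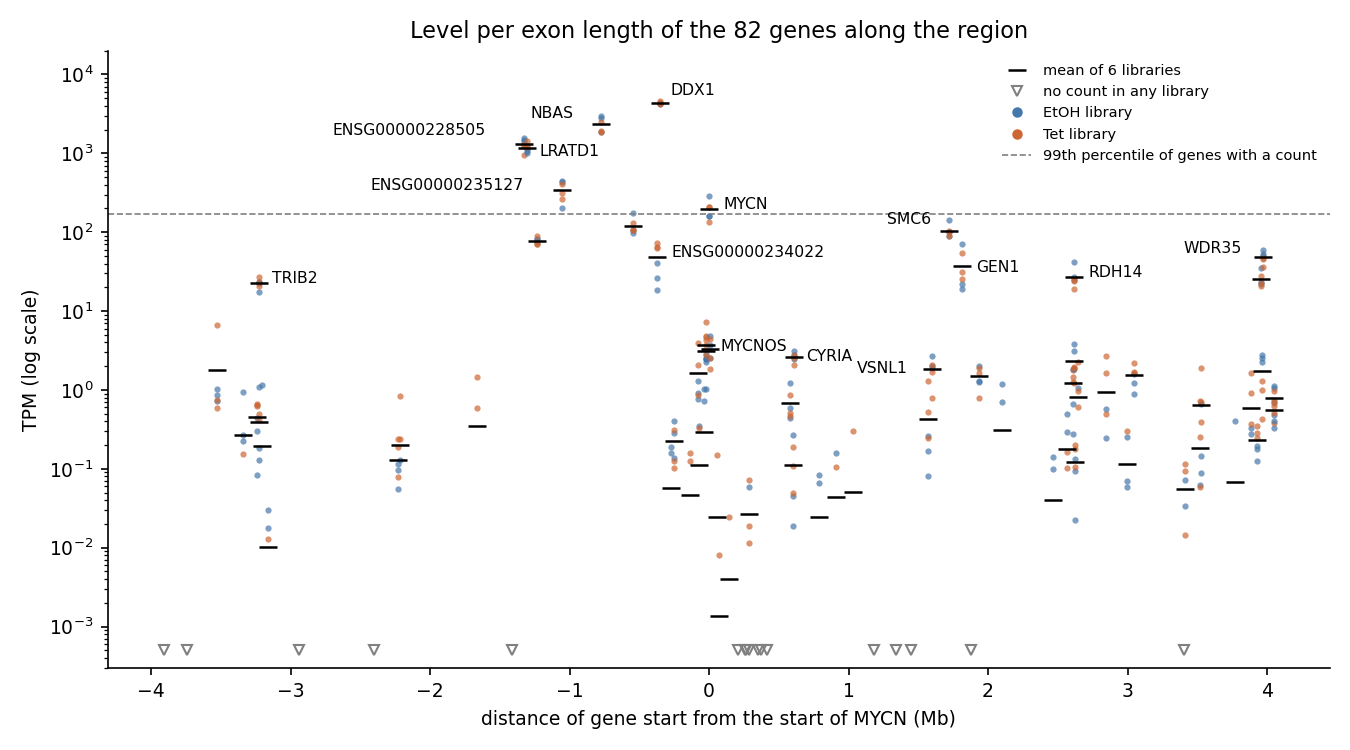
Mean TPM (log axis) of the 82 genes against the distance of each gene's start from that of *MYCN*, in Mb, with the 3 EtOH and 3 Tet libraries as coloured points where a library had a count, and triangles for the 17 genes with no count. The highest levels form one stretch before *MYCN* that ends at *DDX1* (4354 TPM), the genes just after *MYCN* reach at most 3.31 TPM, and a lower group led by *SMC6* (104.9 TPM) lies further on.

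By position the levels were described in stretches, whose bounds were drawn after the levels were seen. Differences in level between these stretches are therefore partly built in. From the lncRNA ENSG00000228505 to the end of *DDX1*, over 1017.9 kb, all 8 genes passed the filter on low counts, lay between 47.8 and 4354 TPM, and together gave 96.7% of the region's counts. The 15 genes before this stretch, towards the telomere, gave 0.136%. The 6 genes between *DDX1* and *MYCNOS* were all lncRNAs, small RNAs or pseudogenes, none was tested, and the most counted summed to 34.5 counts over 6 libraries. *MYCN* starts 306.2 kb after the end of *DDX1*. In the stretch after *MYCN*, up to *CYRIA*, 7 of 14 genes had no count and the highest reached 3.31 TPM, while the 36 genes from *CYRIA* to *MATN3* gave 2.50% of the region's counts.

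*DDX1* (chromosome 2, 15591178 to 15634346, plus strand), a DEAD-box RNA helicase of the tRNA ligase complex, had the highest level of the region. It stood at 4185, 4300.4 and 4402 TPM in the EtOH libraries and at 4653, 4184 and 4398 TPM in the Tet libraries. This was rank 21 of all genes with a count, and its coefficient of variation over the 6 libraries, 4.04%, was smaller than that of *NBAS* (21.6%) or *MYCN* (28.1%). *NBAS* (15166914 to 15561334, minus strand), a subunit of the NRZ complex that tethers vesicles at the endoplasmic reticulum, was second in 6 of 6 libraries, with 2979, 1854 and 2786 TPM for EtOH and 2529, 1860.3 and 1946 TPM for Tet. EtOH replicate 2 and Tet replicates 2 and 3 were low and the other 3 libraries high, so the spread ran across both groups.

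*LRATD1* (14632700 to 14650814, plus strand), which encodes a protein with a lecithin retinol acyltransferase-like domain, starts at -1307.8 kb relative to the start of *MYCN* and averaged 1186 TPM. The lncRNA ENSG00000228505 (14616428 to 14630192) ends 2508 bases before *LRATD1* on the same strand and averaged 1326 TPM over its 346 exon bases. Its 3 EtOH values were 1479, 1417 and 1553 TPM and its Tet values 1258, 964 and 1287 TPM. It was above *LRATD1* in 4 of 6 libraries, so the order of these neighbours was not settled by their spread. Between *LRATD1* and *NBAS*, the minus-strand lncRNAs ENSG00000287291 and ENSG00000235127, of which the second lies within the span of the first, averaged 78.2 and 344.5 TPM. The first varied little, with 83.0, 74.995 and 81.2 TPM for EtOH and 88.9, 71.0 and 70.1 TPM for Tet. The second had 446.8, 204.8 and 438 TPM for EtOH and 406.2, 260.8 and 310.4 TPM for Tet, lowest in the library numbered 2 of each group.

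Within the span of *NBAS*, and on its strand, lies *RPS26P18*, a processed pseudogene of a ribosomal protein gene, with 97.9, 175.5 and 105.8 TPM for EtOH and 106.3, 131 and 107.2 TPM for Tet. Only uniquely aligned reads were counted, so reads that fit a near-identical copy equally well were left out, and its level is uncertain. The lncRNA ENSG00000234022 (15564170 to 15573868, plus strand) starts 2836 bases from the 5′ end of *NBAS*, on the other strand, and ends 17310 bases before *DDX1*. It was at 26.0, 40.3 and 18.7 TPM in the EtOH libraries and at 72.7, 65.3 and 63.98 TPM in the Tet libraries, with no overlap between the groups.

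*MYCN* itself (15940550 to 15947007, plus strand) was at the 99.19th percentile of TPM. It had 162.7, 289.5 and 162.1 TPM in the EtOH libraries and 211.9, 208.3 and 135.5 TPM in the Tet libraries. The highest library was EtOH replicate 2 and the lowest Tet replicate 3, and the groups overlapped. The TPM of *DDX1* was 25.7, 14.9 and 27.2 times that of *MYCN* in the EtOH libraries and 22.0, 20.1 and 32.4 times in the Tet libraries. *MYCNOS* (15918350 to 15942249, minus strand), the antisense RNA that overlaps the start of *MYCN*, averaged 3.77 TPM. *MYCNUT* (15920399 to 15936017, plus strand), an RNA transcribed upstream of *MYCN*, averaged 3.10 TPM, and 64% of its exon bases lie inside *MYCNOS*. Because the counting did not use strand, reads of this antisense pair cannot be told apart, and the 3.75% of *MYCN* exon bases that lie in *MYCNOS* are also shared.

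The bases upstream of the 5′ ends of 3 genes are shown, for *NBAS* and *LRATD1*, 2 of the 4 genes at 1000 TPM or more, and for *MYCN*, the gene that names the region. The window of *DDX1* lies within exons of its longer transcripts and is not shown. They are read 5′ to 3′ on the strand of the gene from RefSeq promoters of GRCh38. Capitals mark the GC box GGGCGG, or CCGCCC on the other strand, the motif of SP-family factors. The *LRATD1* window was chosen after values were seen.
*LRATD1*, chr2:14632467-14632699, plus strand: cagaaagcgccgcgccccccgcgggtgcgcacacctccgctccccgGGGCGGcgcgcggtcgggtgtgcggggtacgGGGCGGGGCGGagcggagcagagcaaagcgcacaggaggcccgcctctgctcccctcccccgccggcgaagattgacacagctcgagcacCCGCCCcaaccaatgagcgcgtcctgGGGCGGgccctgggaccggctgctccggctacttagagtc
*NBAS*, chr2:15561335-15561584, minus strand: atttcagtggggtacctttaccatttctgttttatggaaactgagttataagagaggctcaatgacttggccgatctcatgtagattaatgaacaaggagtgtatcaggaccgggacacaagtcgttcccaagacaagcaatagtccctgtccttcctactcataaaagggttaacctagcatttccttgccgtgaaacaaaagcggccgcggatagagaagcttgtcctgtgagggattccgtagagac
*MYCN*, chr2:15940300-15940549, plus strand: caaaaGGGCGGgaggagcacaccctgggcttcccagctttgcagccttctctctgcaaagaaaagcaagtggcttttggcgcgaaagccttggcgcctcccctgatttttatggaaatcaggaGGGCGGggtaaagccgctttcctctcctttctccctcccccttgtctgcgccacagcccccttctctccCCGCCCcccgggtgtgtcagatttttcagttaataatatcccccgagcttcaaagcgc

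The *LRATD1* window held 5 GC boxes, of which 2 overlap by their last and first base, and 75.1% G or C. The *MYCN* window held 3 GC boxes and 57.2% G or C, and 52 of its bases are exon bases of *MYCNOS* on the other strand. The window of *NBAS* held 0 GC boxes, at 45.6% G or C. The E-box CACGTG, a motif that reads the same on both strands and is known as a site of MYC-family factors, was in none of the 3, which says only that these letters are not in these windows. Over 35116 promoter windows of RefSeq, 42.6% held a GC box on either strand and 6.34% held CACGTG.

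The genes nearest to *MYCN* on its far side were weakly detected. *RN7SL104P*, a pseudogene of the 7SL RNA of the signal recognition particle 10.1 kb after the start of *MYCN*, averaged 3.31 TPM over its 293 bases and had at most 0.530 CPM in any library.

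In the flanks, the highest levels were lower than those of the core stretch from ENSG00000228505 to *DDX1*. Before the core stretch, *TRIB2*, which encodes a pseudokinase, was at 17.6, 23.6 and 22.5 TPM in the EtOH libraries and at 23.1, 20.9 and 27.4 TPM in the Tet libraries. After *MYCN*, *GACAT3*, a lncRNA at the far side of the gene, summed to 0.5 counts over 6 libraries, and *CYRIA*, whose protein binds the small GTPase RAC1, was at 2.76, 2.45 and 3.15 TPM for EtOH and at 2.798, 2.54 and 2.05 TPM for Tet. *VSNL1*, a neuronal calcium sensor, had 1.99, 1.91 and 2.73 TPM for EtOH and 1.69, 0.790 and 2.06 TPM for Tet. *KCNS3*, a modifier subunit of potassium channels, had 1.299, 2.01 and 1.26 TPM for EtOH and 1.63, 1.91 and 0.785 TPM for Tet. *TRIB2*, *CYRIA*, *VSNL1* and *KCNS3* overlapped between the groups. Their means lay below the lowest mean of the core stretch, 47.8 TPM for ENSG00000234022, whereas the flank genes *SMC6* and *WDR35* averaged 104.9 and 48.3 TPM. In EtOH replicate 3 that lncRNA, at 18.7 TPM, was below *TRIB2*.

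*SMC6*, a core subunit of the SMC5/6 complex of chromosome maintenance, was at 88.3, 143.1 and 100.2 TPM in the EtOH libraries and at 90.9, 104.9 and 102 TPM in the Tet libraries. *GEN1*, a nuclease that cuts Holliday junctions, lies within the span of *SMC6* on the other strand and averaged 37.4 TPM. *WDR35*, a subunit of the intraflagellar transport complex IFT-A, averaged 48.3 TPM, and the tetratricopeptide repeat gene *TTC32* 25.3 TPM. *RDH14*, a retinol dehydrogenase, had 25.03, 41.997 and 26.9 TPM for EtOH and 24.1, 25.7 and 19.2 TPM for Tet, with EtOH replicate 2 apart from the rest.

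Other named genes of the flanks had low levels. *MSGN1*, a transcription factor of the early mesoderm, had no count, and *OSR1*, a transcription factor of kidney and limb development, had 5, 0 and 2 counts in the EtOH libraries and 5, 1 and 10 in the Tet libraries. *MATN3*, a matrix protein of cartilage, had 1.05, 0.406 and 1.11 TPM for EtOH and 0.983, 0.512 and 0.633 TPM for Tet. *NT5C1B*, a cytosolic nucleotidase, had 5, 5 and 1 counts for EtOH and 8, 5.5 and 11.5 for Tet, and its read-through partner *NT5C1B-RDH14*, at 2.31 TPM, shares 100% of its exon bases with other genes, so its level is uncertain. The small RNA genes *RNU6-843P* and *RNU5E-7P* exceeded 1 TPM, at 1.78 and 1.64 TPM, on 12 and 15 counts over their short length, and the lncRNA ENSG00000260331 averaged 1.21 TPM, with 0.276 TPM in EtOH replicate 1 and 1.82 TPM in EtOH replicate 2.

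The comparison between the labels asked whether the genes of the region moved with tetracycline. Of the 82 genes, 31 passed the filter on low counts and were tested, 16 of them protein-coding and 13 lncRNAs. The other 51 comprised the 17 with no count and 34 whose totals reached at most 71.5 counts over all libraries. By edgeR with Benjamini-Hochberg adjustment over 22443 genes, 0 of the 31 were higher and 0 were lower at an adjusted p under 0.05, where 0.147% and 0.0891% of all genes tested were called. At an unadjusted p under 0.05 there were 5, or 16.1%, against 10.8% of all genes tested. DESeq2 called 2 of 32, both higher in Tet, where it called 1.18% of 23987 genes higher. The median log2 fold change was -0.02 over the 31 genes and -0.006 over all genes tested.

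Among the 31, 10 had groups that did not overlap (32.3%, against 17.5% of all genes tested), 8 higher and 2 lower in the libraries labelled Tet. Of the 13 tested lncRNAs, 10 had a log2 fold change above 0, with a median of 0.85, where 51.3% of the 5234 lncRNAs tested across the genome lay above 0, with a median of 0.01. The median was that of ENSG00000260331, which had 71 counts in all and groups that overlapped. The most abundant lncRNAs, ENSG00000228505, ENSG00000287291 and ENSG00000235127, averaged 168.8, 61.1 and 59.4 CPM. Their log2 fold changes were -0.27, 0.006 and -0.11, and every other tested lncRNA averaged at most 7.24 CPM. *MYCNOS* and *MYCNUT* share reads but are counted separately. Of the 16 tested protein-coding genes, 5 lay above 0 and 11 below, with a median of -0.08 against -0.009 for 12830 tested across the genome. A gene could pass the filter through the libraries of 1 group alone, so these counts describe the tested genes only. In bulk RNA, fewer cells of a kind and less RNA per cell cannot be told apart.

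**Figure D2:**
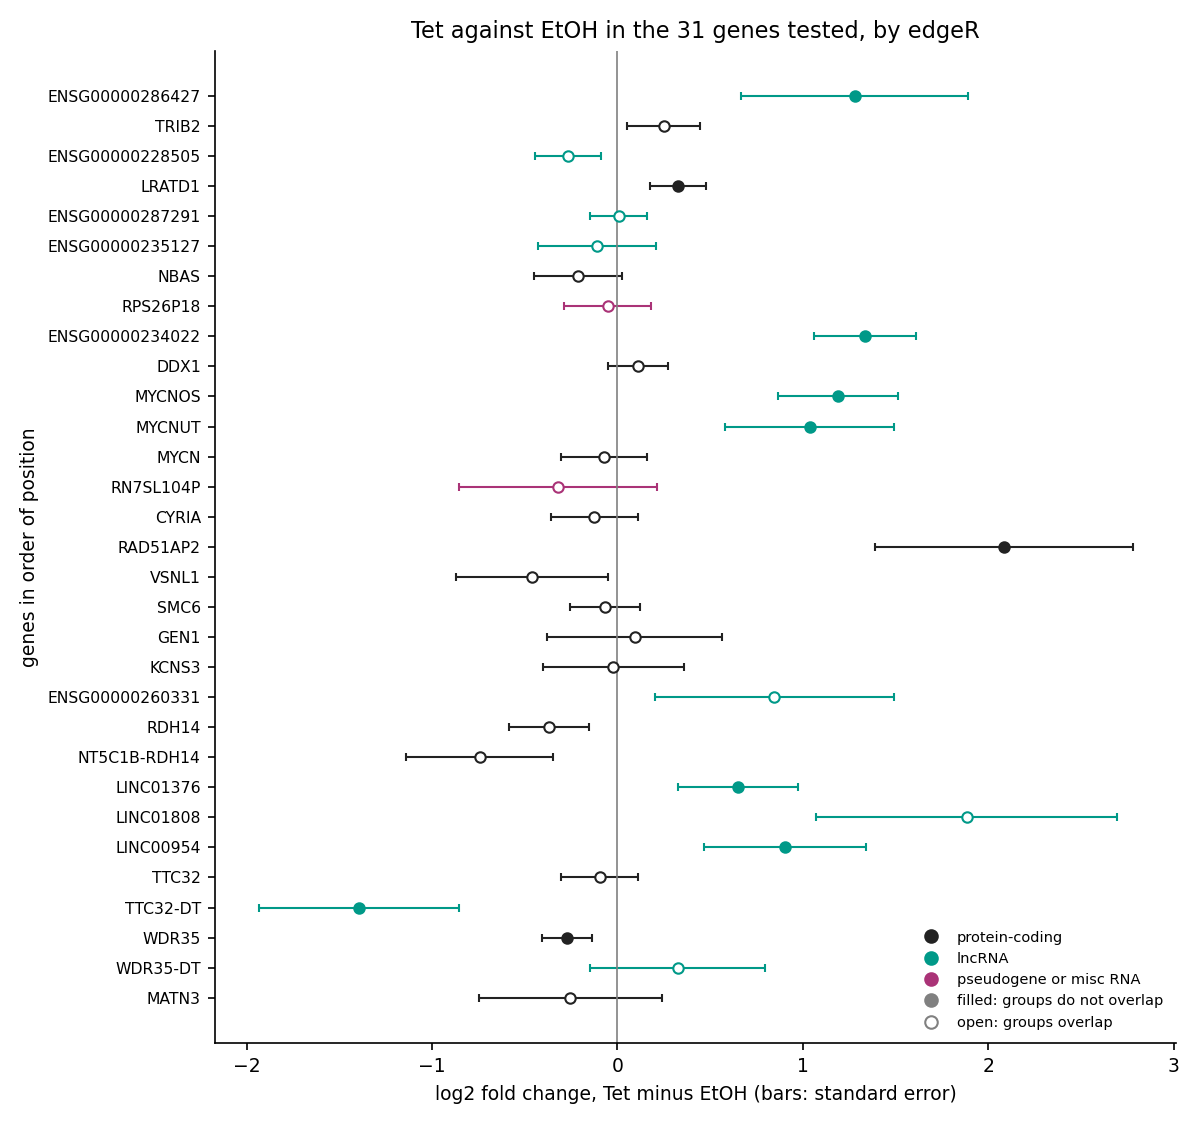
Log2 fold change, Tet minus EtOH, with its standard error, of the 31 tested genes in order of position, coloured by gene class and filled where the groups do not overlap. The abundant genes *DDX1*, *NBAS* and *MYCN* lie near 0, and ENSG00000234022, *MYCNOS*, *MYCNUT* and *RAD51AP2* lie between 1.04 and 2.08.

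The lowest p of the region was that of the lncRNA ENSG00000234022, between *NBAS* and *DDX1*. It had 3.96, 5.55 and 2.81 CPM in the EtOH libraries and 10.6, 9.82 and 10.7 CPM in the Tet libraries. All Tet libraries were above all EtOH libraries, and their spread was narrow, at 10.4 ± 0.484 CPM against 4.11 ± 1.38 CPM (SD, n = 3 each). With a log2 fold change of 1.34 (SE 0.28) and an adjusted p of 0.113 by edgeR, it did not pass the threshold. It passed in 5 of 13 alternatives: DESeq2 (adjusted p = 0.00255), the replicate block (edgeR, 0.0182), no filter (0.0251), and the fits without EtOH replicate 2 (0.0129) or without both libraries numbered 2 (0.0125). Its neighbours on either side had log2 fold changes of -0.21 (SE 0.24) for *NBAS* and 0.11 (SE 0.16) for *DDX1*.

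*MYCNOS* was next in order of p, with 4.66, 4.36 and 4.23 CPM in the EtOH libraries and 6.81, 8.04 and 15.3 CPM in the Tet libraries (log2 fold change 1.19, SE 0.32, adjusted p = 0.213 by edgeR). The groups did not overlap, and Tet replicate 3 lay far above the other Tet libraries. Without it the log2 fold change was 0.75 (adjusted p = 0.414 by edgeR). With all 6 libraries, DESeq2 called the gene (adjusted p = 0.0309). Per 100 CPM of *MYCN* there were 2.95, 1.70 and 2.71 CPM of *MYCNOS* in the EtOH libraries and 3.46, 4.02 and 10.5 CPM in the Tet libraries. *MYCNUT*, which shares reads with it, had 0.949, 1.01 and 0.397 CPM for EtOH and 1.74, 1.07 and 2.04 CPM for Tet (1.04, SE 0.46, adjusted p = 0.465 by edgeR). *MYCN* RNA moved by -0.07 on the log2 scale (SE 0.23, adjusted p = 0.956 by edgeR). The change was 0.21 without EtOH replicate 2 and 0.07 without Tet replicate 3. Neither an induction nor a knockdown of *MYCN* was thus detected between the labels at the level of RNA. The study reported the knockdown in its shRNA line by western blot for the MYCN protein. It also reported a global rise of circular RNAs and lower levels of the RNA helicase DHX9 after that knockdown. RNA counts do not measure protein, so they do not test the blot, and circular RNAs were not counted here.

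The other genes with an unadjusted p under 0.05 had few counts. *RAD51AP2* had 4, 9 and 7 counts in the EtOH libraries and 48, 12 and 32 in the Tet libraries (log2 fold change 2.08, SE 0.69, adjusted p = 0.315 by edgeR). Tet replicate 2, at 0.338 CPM, lay just above EtOH replicate 2, at 0.325 CPM, and the log2 fold change was 2.49 without the former and 1.36 without Tet replicate 1. The lncRNA *LINC01808* had 0.167, 0.685 and 0.0992 CPM for EtOH and 0.425, 2.14 and 0.881 CPM for Tet, with overlap between the groups (1.88, SE 0.81, adjusted p = 0.455 by edgeR). Its log2 fold change was 3.07 without EtOH replicate 2 and 1.07 without Tet replicate 2.

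*TTC32-DT*, a divergent transcript that starts 42 bases from the 5′ end of *TTC32*, was lower in Tet. It had 0.446, 0.469 and 0.562 CPM in the EtOH libraries and 0.248, 0.0846 and 0.227 CPM in the Tet libraries (log2 fold change -1.39, SE 0.54, adjusted p = 0.401 by edgeR), without overlap. *TTC32* itself overlapped between the groups, at 16.2, 23.8 and 17.2 CPM for EtOH and 16.1, 20.2 and 17.2 CPM for Tet (-0.10, SE 0.21, adjusted p = 0.930 by edgeR).

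**Figure D3:**
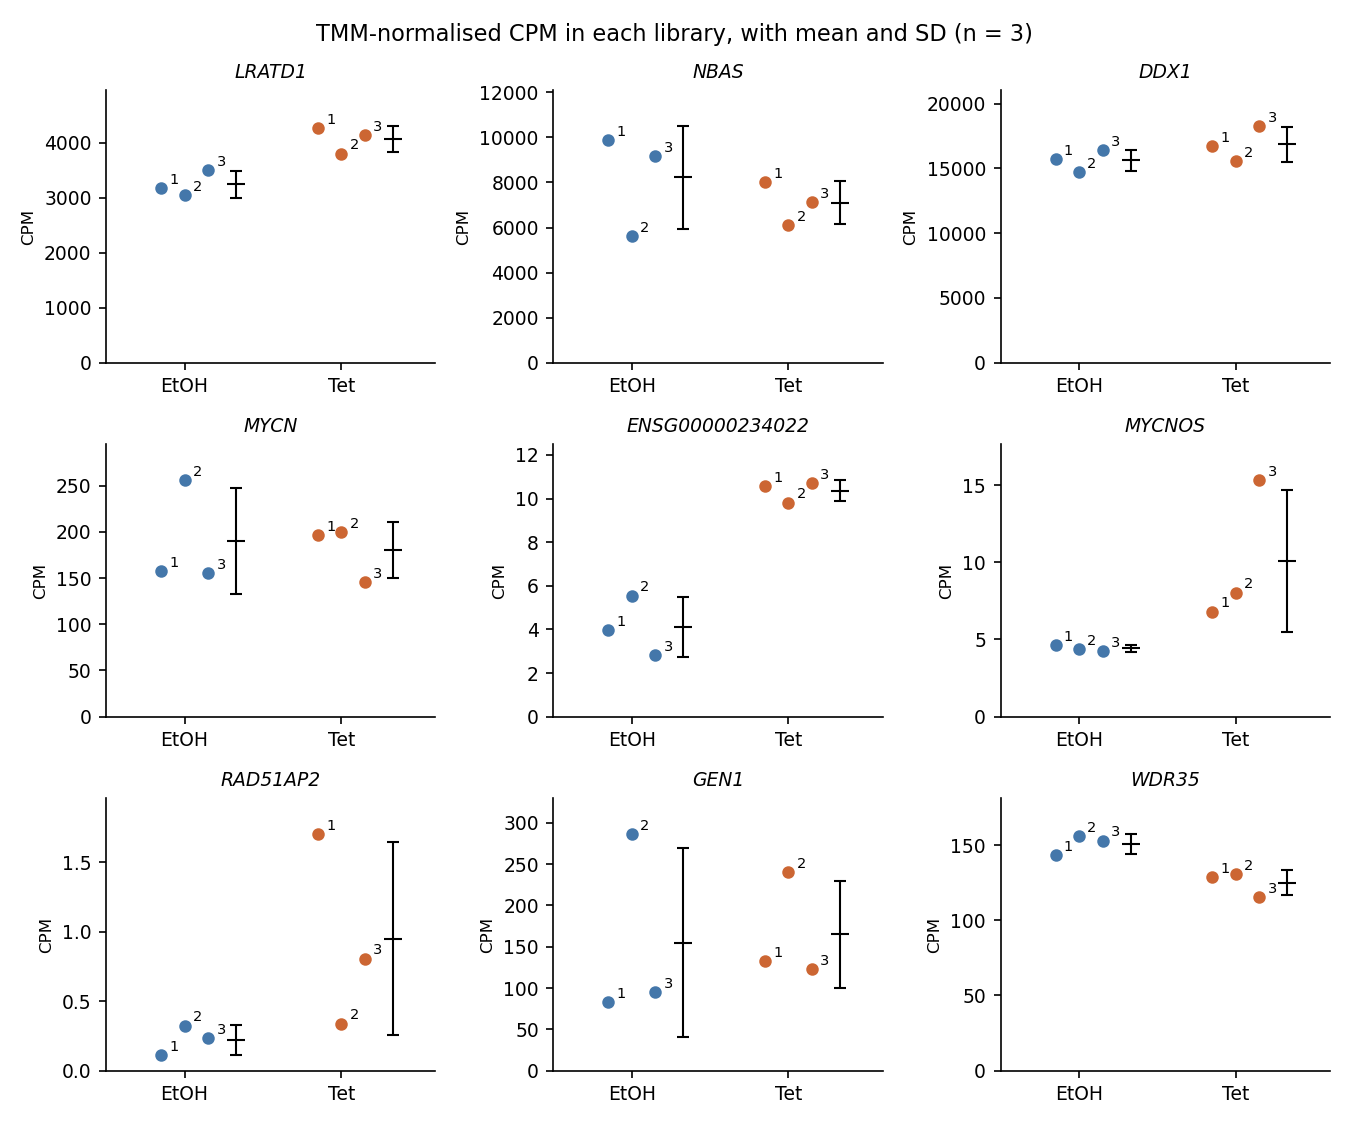
TMM-normalised CPM of 9 genes of the region in each library (points, numbered by replicate; axes start at 0), with the group mean and SD (n = 3) as bars. ENSG00000234022, *MYCNOS*, *LRATD1* and *RAD51AP2* are higher and *WDR35* lower in 3 of 3 Tet libraries, whereas *GEN1* is highest in the library numbered 2 of each group.

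Among abundant genes, *LRATD1* and *WDR35* had groups that did not overlap. *LRATD1* had 3167, 3044 and 3508 CPM in the EtOH libraries and 4262, 3801 and 4133 CPM in the Tet libraries, a log2 fold change of 0.33 (SE 0.15, adjusted p = 0.488 by edgeR) that lay between 0.29 and 0.38 when any 1 library was left out. Set against *DDX1* within the same library, the TPM ratio was 0.244, 0.250 and 0.259 for EtOH and 0.309, 0.296 and 0.274 for Tet. These ratios did not overlap either, but *DDX1* varied little (4.04%), so they largely restate the *LRATD1* values. *WDR35* had 143.2, 156 and 153 CPM for EtOH and 128.7, 130.7 and 115.3 CPM for Tet (-0.27, SE 0.14, adjusted p = 0.536 by edgeR). The other genes without overlap were the lncRNAs ENSG00000286427 (1.28, SE 0.61), *LINC01376* (0.65, SE 0.32) and *LINC00954* (0.90, SE 0.44), all at or under 2.38 CPM in every library. *LINC01376*, the highest of them, had 1.395, 1.62 and 0.992 CPM for EtOH and 2.38, 1.83 and 2.09 CPM for Tet. None of these differences passed the threshold.

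The 2 libraries numbered 2 stood apart from the others of their groups in some values. EtOH replicate 2 had the lowest share of mitochondrial counts (4.12%, the other EtOH libraries 8.49% and 10.01%) and Tet replicate 2 the lowest of its group (5.86%, against 6.82% and 9.14%). In these 2 libraries, 23 of the 31 tested genes, or 74.2%, deviated in the same direction from the other libraries of their group, and so did 73.7% of all 22443 genes tested. *GEN1* had 83.1, 286 and 94.7 CPM in the EtOH libraries and 132.1, 239.9 and 122.9 CPM in the Tet libraries, so the library numbered 2 was 3.22 and 1.88 times the mean of the others. *SMC6*, which surrounds it, was 1.39 and 1.04 times the mean of the others there. Whether mitochondrial share has a part in these levels was not tested.

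*NBAS* went the other way, at 0.589 and 0.806 times the mean of the other libraries. Per TPM of *DDX1* there were 0.712, 0.431 and 0.633 TPM of *NBAS* in the EtOH libraries and 0.543, 0.445 and 0.443 TPM in the Tet libraries, so these genes of the core stretch did not keep a fixed ratio. Without EtOH replicate 2, the log2 fold change of *NBAS* was -0.42 in place of -0.21, and that of *GEN1* was 0.90 in place of 0.09 (adjusted p = 0.163 and 0.110 by edgeR).

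**Figure D4:**
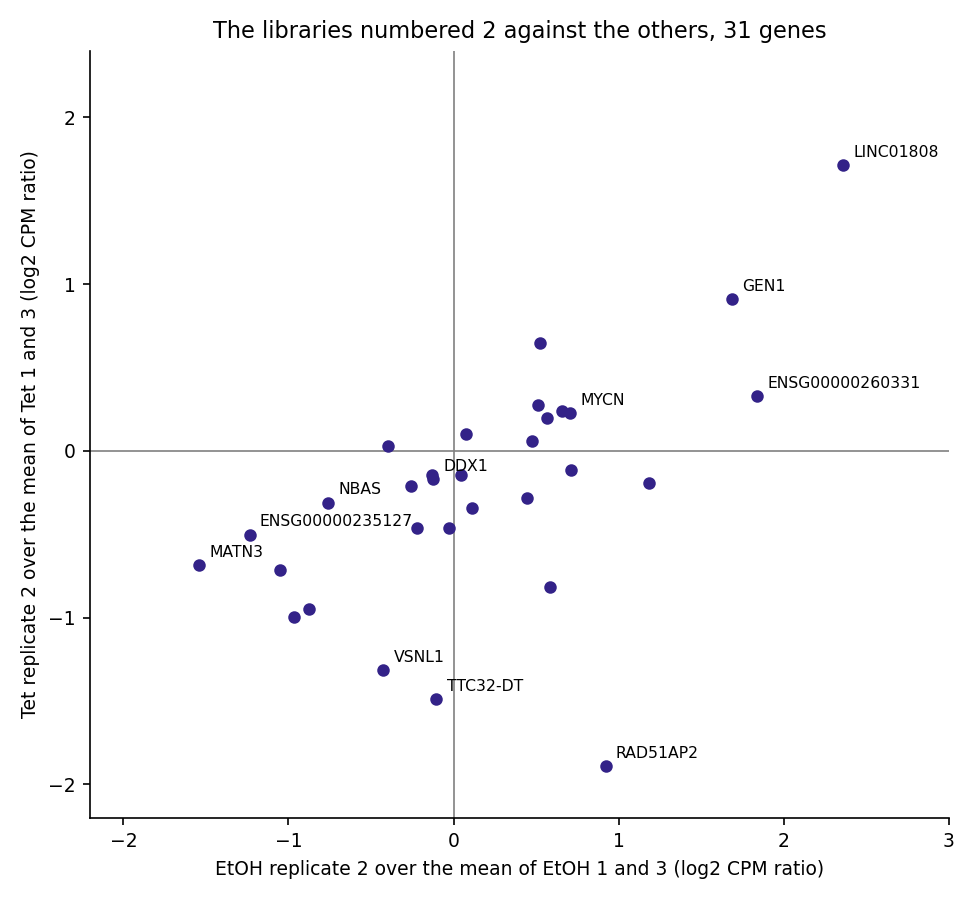
Log2 CPM ratio of the library numbered 2 over the mean of libraries 1 and 3, in Tet (vertical axis) against EtOH (horizontal axis), for the 31 tested genes. Of the 31 genes, 23 lie in the lower left or upper right part, where both ratios have the same sign (74.2%, against 73.7% of all genes tested), with *GEN1* and *LINC01808* at the top right and *NBAS* at the lower left, while *RAD51AP2* is high in EtOH and low in Tet.

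Genes whose proteins work in the same complexes, encoded elsewhere in the genome, were far below the core genes. The 6 other genes of the tRNA ligase complex (*RTCB*, the ligase itself, *RTRAF*, *FAM98A*, *FAM98B*, *C2orf49* and *ZBTB8OS*) lay between 14.3 and 48.0 TPM, and *DDX1* was 90.8 times the highest of them in the means and 70.2 to 92.5 times in single libraries. The 6 NRZ and SNARE partners of *NBAS* (*RINT1*, *ZW10*, *STX18*, *USE1*, *BNIP1* and *SEC22B*) lay between 0.213 and 36.9 TPM, and *NBAS* was 63.0 times the highest (33.7 to 83.4). *MYCN* was 4.69 times the highest of 9 other genes of the MYC network (3.49 to 7.12), which was *MGA*, while its dimerisation partner *MAX* averaged 10.6 TPM.

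The flank genes stood closer to the highest of their partners. *WDR35* was 1.87 times the highest of the 6 other genes listed with IFT-A (1.25 to 2.10). The highest was *TULP3* at 25.8 TPM, with *WDR19* next at 24.7 TPM, and the median of the 6 was 11.3 TPM. *SMC6* was 0.642 times its direct partner *SMC5*, which averaged 163 TPM. The other genes of that list were well below *SMC6*, from *NSMCE3* with no count to *SLF2* at 35.8 TPM. The median of the 8 partners was 26.8 TPM. In these 5 lists, 0 of 37 tested genes were called in either direction by edgeR, the genes of the region included, and 4 had an unadjusted p under 0.05, which at 10.8% was the same share as over all genes tested. DESeq2 called 1 of the 37, or 2.70%, where it called 2.02% of all its genes in either direction. This was *MXD4*, a repressor that pairs with MAX (adjusted p = 0.0193 by DESeq2 and 0.197 by edgeR).

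**Figure D5:**
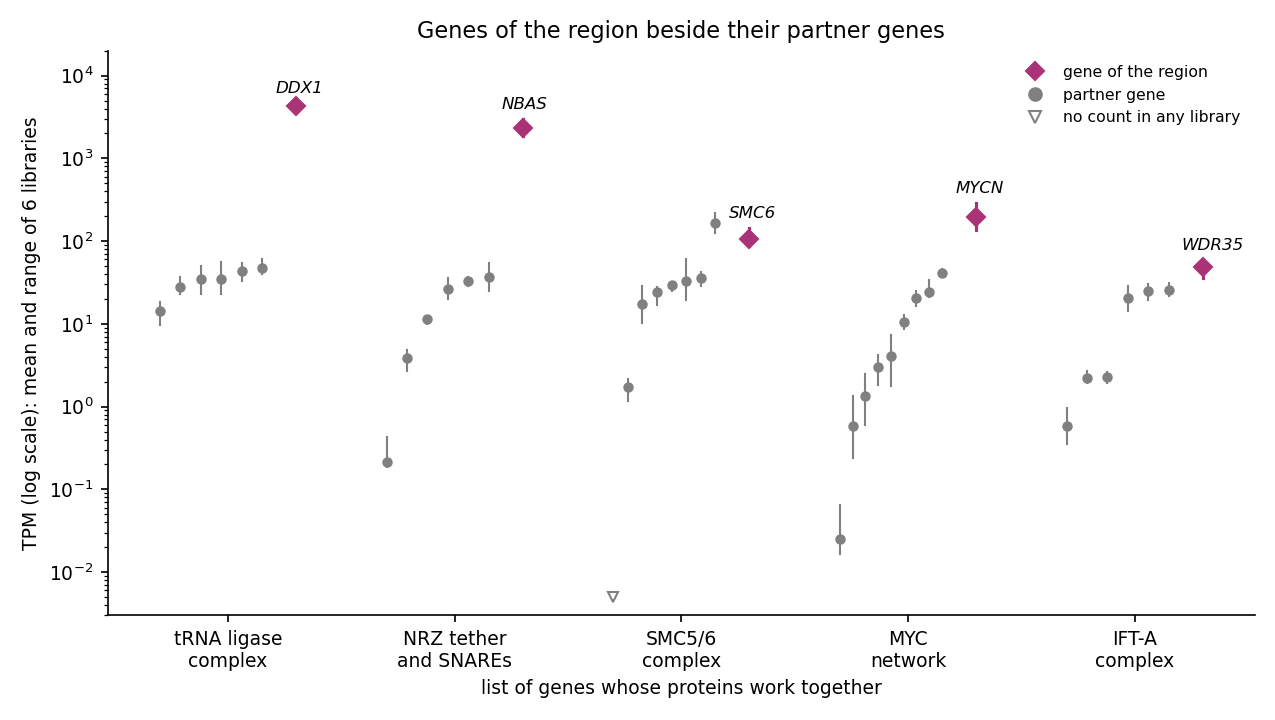
TPM (log axis) of *DDX1*, *NBAS*, *SMC6*, *MYCN* and *WDR35* (diamonds) beside the genes of their 5 partner lists (grey), as mean and range over the libraries with a count. *DDX1* and *NBAS* stand 90.8 and 63.0 times above their highest partner, *SMC6* and *WDR35* within the range of 0.642 to 1.87 times.

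Other stretches of chromosome 2 gave the scale of these levels. The 4 Mb before the region, 8 to 12 Mb, held 95 genes and 0.219% ± 0.0333 of counts in EtOH libraries, and the 4 Mb after it, 20 to 24 Mb, held 60 genes and 0.0712% ± 0.00326 (SD, n = 3 each), with 0 genes at 1000 TPM or more in either and 4 in the region. The stretch from 64 to 68 Mb, around *MEIS1* in band 2p14, held 0.553% ± 0.0989 in EtOH and 0.622% ± 0.0279 in Tet. Of its 72 genes, 9 were at 100 TPM or more, against 8 of 82 in the region and 971 of all 60651 genes. There edgeR called 2 of 36 tested genes higher in Tet, against 0 of 31 in the region and 33 of all 22443 genes tested. The difference between these stretches was not tested.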

How the data were processed

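Per the file headers, the authors counted uniquely aligned read pairs over GENCODE exons with featureCounts 1.6.4, without strand, dividing a pair evenly among overlapping genes. The deposited values are therefore estimated counts, with 12.3% to 14.7% of genes per library not whole. The study's notes name STAR 2.7.1a and featureCounts 1.5.1 with strand-aware options, and the headers were followed. The 92 spike-in rows held 0 counts and were left out. Values were rounded, filtered with filterByExpr, scaled by TMM and tested with edgeR 4.0.16 in R 4.3.3 (quasi-likelihood F test), Tet against EtOH, over all genes, adjusted by Benjamini-Hochberg with a threshold of 0.05. The design had assumed whole counts. SE is the size of the log2 fold change divided by the square root of F. CPM compares groups. TPM, from counts and exon length, compares genes. DESeq2 1.42.0 and other settings were alternatives, and the test was also run on simulated counts. With 3 libraries in each group, a gene that was not called may still differ between the labels. Coordinates of 71 of 71 genes of the region with the same version matched GENCODE 44.

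Genes named were *MYCN*, *MYCNOS*, *MYCNUT*, *DDX1*, *NBAS*, *GACAT3*, *CYRIA*, *TRIB2*, *VSNL1*, *SMC6*, *GEN1*, *RAD51AP2*, *KCNS3*, *RDH14*, *OSR1*, *TTC32*, *WDR35*, *MATN3*, *MSGN1*, *NT5C1B*, other genes of the region with a mean TPM of at least 1 or an unadjusted p under 0.05, and the partner lists. Genes named only because their groups did not overlap were added after values were seen. The members and lists were chosen with earlier results of these data known. Some items are not reported here.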

Additional observations from a re-analysis of the deposited data

How the results depend on the processing

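No gene of the region was called lower in any fit. Genes of the region called higher numbered 0 in the reported fit, 1 with no filter, 1 with the replicate block, 1 without both libraries numbered 2 (an alternative chosen after seeing the data), 2 under DESeq2, and from 0 to 1 when 1 library was left out, where the 1 came without EtOH replicate 2. Those without overlap numbered 10 of 31 as reported, beside 3924 of all 22443 genes tested. With 1 library left out they numbered 11 to 19. The 19, of 33 tested, came without EtOH replicate 2, beside 9816 of all 23935 genes tested. Without both libraries numbered 2 they numbered 22 of 31, beside 11844 of all 23156 genes tested. Fewer libraries overlap less often by construction. Over all genes, 33 were higher and 20 lower as reported, 27 and 13 under RLE size factors, 185 and 117 with no filter, 282 and 203 under DESeq2, 487 and 387 without both libraries numbered 2, and from 0 to 361 and from 0 to 331 with 1 library left out, the highest of each without EtOH replicate 2. The cause was not tested. The groups share replicate numbers, but no label says that the number marks a day, batch or culture, so a block on it was kept as an alternative. Deviations of same-numbered libraries correlated at 0.0603, 0.51 and 0.219, and whether the libraries were paired was not settled. With the number as a block, 421 genes were higher and 254 lower.

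Of 402 refits of the 31 tested genes, 372 kept direction and side of the threshold, 6 passed it (5 for ENSG00000234022 and 1 for *MYCNOS*) and 24 changed sign, in 8 genes whose reported size was at most 0.11. With 1 library left out, log2 fold changes ran from -0.069 to 0.074 for ENSG00000287291, -0.41 to 0.069 for ENSG00000235127, -0.21 to 0.21 for *RPS26P18*, -0.22 to 0.21 for *MYCN*, -0.21 to 0.11 for *SMC6*, -0.28 to 0.90 for *GEN1*, -0.27 to 0.25 for *KCNS3* and -0.22 to 0.10 for *TTC32*. Without both libraries numbered 2 they were 0.12 for *RPS26P18*, 0.13 for *MYCN*, 0.094 for *SMC6*, 0.0003 for *TTC32* and -0.0036 for ENSG00000287291, which was also -0.0036 under DESeq2 and -0.0076 under RLE.

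Without the 10 most abundant genes outside the region, its share was 3.33% for EtOH and 3.37% for Tet. It was 3.14% and 3.11% of nuclear counts. With 1 library left out it ran from 2.77% to 3.14% and from 2.79% to 3.03%. Of the 51 genes not tested, 17 had no count and 13 had 1 to 3 counts in all, at which lack of expression and too little depth cannot be told apart.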
